A study of Homo sapiens with 12 samples.

Results

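Long noncoding RNAs are transcripts that act as RNA and not as templates for protein, and 9 well-known ones were followed here in HEK293T cells transfected with siRNAs against snaR-A. The 9 were taken by name: MALAT1, NEAT1, NORAD, TUG1, KCNQ1OT1, OIP5-AS1, CYTOR, PVT1 and LINC-PINT. Of the 63541 gene rows in the table, 8 belonged to these RNAs. OIP5-AS1 was not analysed here, and MALAT1 had a row with almost no counts, so that 7 of the 9 could be tested. Some of these RNAs stay in the nucleus, where NEAT1 is the scaffold of paraspeckles, MALAT1 lies in nuclear speckles and KCNQ1OT1 coats an imprinted chromosome domain in cis. Others, such as NORAD, are mostly cytoplasmic and bind RNA-binding proteins there. PVT1 and CYTOR are best known from tumours, PVT1 as the neighbour of the MYC oncogene, and LINC-PINT is described as a p53-induced transcript that works with the Polycomb complex PRC2.

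HEK293T is a human embryonic kidney line that carries the SV40 large T antigen, and snaR-A is a short RNA made by RNA polymerase III. The cells received 12.5 nM of a scramble siRNA (the control), si-snaR-A#1, si-snaR-A#2 or si-snaR-A#3. RNA was taken after 48 h, with 3 replicates in each of the 4 groups, so that all cells were of 1 line and all were transfected. RNA was depleted of rRNA, enriched for poly(A)+ molecules and made into stranded libraries. Replicates are described as biological by the submitters, but nothing says that they came from separately thawed cultures, so p-values measure the spread between these samples.

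The 12 libraries held between 120.4 and 180.1 M estimated counts, and mitochondrial genes took 3.66% to 6.05% of them. No row could be matched to snaR-A by symbol, so the depth of the knockdown was not analysed here and the labels were not checked by it. Of the markers of epithelial and kidney cells, 6 of 8 passed the filter on low counts (KRT8, KRT18, EPCAM, CDH1, CDH2 and PAX2), while PAX8 and KRT19 did not. Their summed level was 191 to 203 CPM in scramble, 139 to 159 after si-snaR-A#1, 199 in each library of si-snaR-A#2 and 212 to 221 after si-snaR-A#3. CDH2 (N-cadherin) held most of it, at means of 142.8, 93.9, 148.2 and 158.0 CPM in the same order. After si-snaR-A#1 the means of KRT8, KRT18 and PAX2 lay above scramble and those of EPCAM, CDH1 and CDH2 below. At an edgeR adjusted p under 0.05, 1 of the 6 was higher and 2 lower after si-snaR-A#1, 0 and 1 after si-snaR-A#2, and 2 and 1 after si-snaR-A#3. Of all genes, 45.2%, 25.8% and 29.4% were called there. CDH1 (E-cadherin) was lower with each siRNA (-0.49 ± 0.05 in the mean). Of 7 markers of blood, endothelium, fibroblasts and liver, only the collagen genes COL1A1 (log2 fold change -0.47 ± 0.05 in the mean of the siRNAs) and COL3A1 (0.55 ± 0.05) passed, and no marker was at 0 in all 12 libraries. The summed level of those 7 markers was 30.4 to 33.0 CPM in scramble, 29.4 to 30.5 after si-snaR-A#1, 27.9 to 30.2 after si-snaR-A#2 and 23.4 to 25.2 after si-snaR-A#3. The part of these markers in the results was not tested. CPM stands for counts per M of the TMM-scaled library. In bulk RNA, fewer cells with a transcript and less of it per cell cannot be told apart.

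NORAD is known for its many binding sites for the Pumilio proteins, and its sequence shows them directly. Its 1 exon lies on chromosome 20 (GRCh38, 36045618 to 36051018, minus strand) and is transcribed into 5401 bases. The 8-base Pumilio element TGTANATA, searched on the transcript strand only and spelled with T for U, occurred 15 times in it. Among 3446 canonical transcripts of tested genes between 0.8 and 1.25 times its length, 45.6% held at least 1 such element, the median was 0 and 1 transcript held as many or more. The first 4 elements from the 5′ end are shown, with the element in capitals and 8 bases on each side, because NORAD held more of them than any of the other 8 RNAs.
NORAD element 1, chr20:36050185-36050208, minus strand: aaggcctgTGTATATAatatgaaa
NORAD element 2, chr20:36049806-36049829, minus strand: cactactgTGTATATAgttgacaa
NORAD element 3, chr20:36049705-36049728, minus strand: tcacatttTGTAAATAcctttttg
NORAD element 4, chr20:36049504-36049527, minus strand: cttatctgTGTATATAgtgtacat
The canonical transcript of NEAT1 held 6 elements in 22743 bases and that of TUG1 held 2 in 7474 bases. The canonical transcripts of the remaining 6 RNAs held 0. A match is a description of the sequence and no evidence of binding.

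Levels spanned a wide range. Per kilobase of the canonical transcript in the scramble libraries, NORAD was at 41.7 ± 1.68 CPM per kb (SD, n = 3) and KCNQ1OT1 at 36.9 ± 7.72, and the ranges of these 2 overlapped. TUG1 followed at 13.8 ± 1.22 CPM per kb, then CYTOR at 6.11 ± 0.123 and NEAT1 at 5.91 ± 2.18, whose ranges overlapped. PVT1 was at 2.63 ± 0.135, LINC-PINT at 1.54 ± 0.165 and MALAT1 at 0.00217 ± 0.00104 CPM per kb, with no overlap between them. Without scramble replicate 1, both overlaps were gone. The places of KCNQ1OT1 and CYTOR rest on the length taken. The canonical transcript of KCNQ1OT1 has 679 bases in 4 exons, but the union of its annotated exons covers 92625 bases. For CYTOR the lengths are 1020 and 17782 bases. On the union length KCNQ1OT1 was at 0.271 ± 0.0566 CPM per kb, below CYTOR at 0.351 ± 0.00708 and overlapping PVT1 at 0.253 ± 0.013. LINC-PINT was at 0.0868 ± 0.00933 there. NEAT1 stayed at 5.9 ± 2.17 and did not overlap CYTOR. Ranks were taken by the mean CPM over all 12 libraries, siRNA groups included, without regard to length. NORAD ranked 3, NEAT1 7, KCNQ1OT1 64, PVT1 269, CYTOR 282 and LINC-PINT 718 among 4727 tested lncRNA genes. TUG1, which GENCODE release 44 lists as protein-coding, would rank 9 among them.

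**Figure D1:**
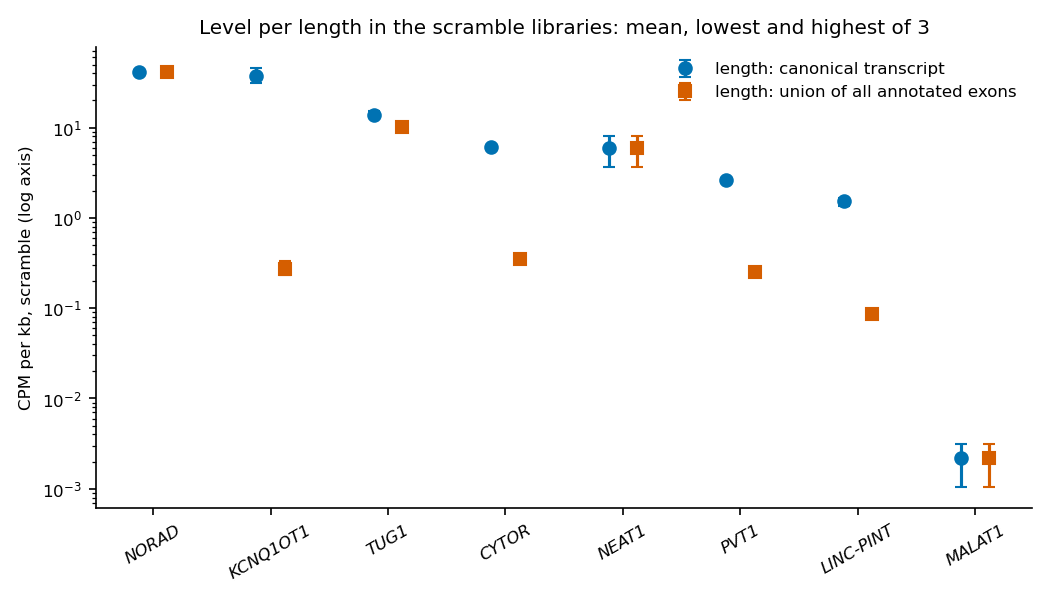
Level of 8 long noncoding RNAs in the scramble libraries in CPM per kilobase (log axis), divided by the length of the canonical transcript (circles) or of the union of all annotated exons (squares), as the mean with the lowest and highest of 3 libraries. KCNQ1OT1 moves from 36.9 to 0.271 CPM per kb between the 2 lengths, while NORAD stays at 41.7 and MALAT1 at 0.00217.

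MALAT1 (ENSG00000251562, chromosome 11, 65497640 to 65508073, plus strand, 1 exon), the speckle RNA that is among the most abundant nuclear transcripts of many cell types, was listed at or close to 0 in every library. The scramble libraries held 1.60, 4.09 and 3.53 estimated counts. The si-snaR-A#1 libraries held 0, 0 and 2.41, the si-snaR-A#2 libraries 0, 9.89 and 8.33 and the si-snaR-A#3 libraries 2.61, 0 and 0. The groups overlapped, 5 of the 12 libraries were at 0 and no group mean is compared, since the row did not pass the filter and no fold is given. The highest value was 9.89 counts. PHF1, a widely expressed chromatin gene, was likewise listed at 0 in all 12 libraries and the RNase P subunit RPP21 in 11. Whether a row at or close to 0 here stands for a low RNA was not tested. Whether reads of MALAT1 were assigned elsewhere was not tested, and its antisense RNA TALAM1 was not analysed here. The end of MALAT1 is cut by RNase P and carries no poly(A) tail, and 84.2% of the 31-base words of its transcript also lie, in reverse complement, in annotated antisense transcripts. The part of either in the low counts was not tested.

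Of the 12 factors that form or guard the MALAT1 3′ end (RNase P subunits, the tRNA 3′ endonuclease ELAC2 and the methyltransferase METTL16), 11 were tested and 5 called in the mean of the siRNAs, 3 higher and 2 lower, with a median log2 fold change of 0.08 beside -0.04 for all genes tested. Of all genes tested, 32.2% were called in that mean. Without si-snaR-A#1 replicate 3, 8 of the factors were called. POP1, the largest protein of RNase P, was higher with each siRNA, by 0.58 ± 0.05 in the mean.

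NEAT1 (ENSG00000245532, chromosome 11, 65422774 to 65445540, plus strand), whose long isoform builds paraspeckles, varied more between replicates than the other 6 tested. Its levels were 183.3, 84.32 and 135.4 CPM in scramble. They were 133, 153 and 209 CPM after si-snaR-A#1, 112, 79.0 and 89.6 CPM after si-snaR-A#2 and 26.5, 49.9 and 91.4 CPM after si-snaR-A#3. The si-snaR-A#1 libraries all lay above all 6 of the other siRNAs, and the scramble range overlapped every other group. The SD of log2 CPM within groups was 0.569 for NEAT1, against a median of 0.0595 among 3500 genes within 2-fold of its level, of which 0 had a larger one. A short polyadenylated and a long form without a poly(A) tail share the 5′ end of the gene, and gene counts do not separate them.

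Against scramble, NEAT1 fell after si-snaR-A#3, by 1.27 on the log2 scale (SE 0.37, edgeR quasi-likelihood adjusted p = 0.0216). That call was lost without si-snaR-A#3 replicate 1 (-0.93, adjusted p = 0.0561), without replicate 2 of that siRNA (-1.19, 0.0771), without scramble replicate 1 (-0.98, 0.0964) and in a fit of the compared groups alone (-1.27, 0.0568). The log2 fold changes after si-snaR-A#1 and after si-snaR-A#2 were 0.30 ± 0.36 and -0.52 ± 0.37, with adjusted p = 0.548 and 0.339. In the mean of the siRNAs it was -0.50 ± 0.29 (adjusted p = 0.221), which passed the threshold without si-snaR-A#3 replicate 3 (-0.68, 0.0399) and shrank to -0.21 without scramble replicate 1. Leaving out scramble replicate 2 or 1 moved the value of si-snaR-A#1 to 0.05 or 0.59 and that of si-snaR-A#2 to -0.77 or -0.23.

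All 14 proteins listed for paraspeckles were tested beside NEAT1. In the mean of the siRNAs 3 were higher, 5 lower and 6 not called, with a median log2 fold change of -0.08 against -0.04 for all genes. By siRNA, the numbers up and down were 3 and 8 after si-snaR-A#1, 4 and 6 after si-snaR-A#2 and 6 and 2 after si-snaR-A#3. Of all genes tested, 21.9% were higher and 23.3% lower after si-snaR-A#1, 13.7% and 12.1% after si-snaR-A#2, and 16.5% and 13.0% after si-snaR-A#3. TAF15, an RNA-binding protein of paraspeckles, rose by 0.50 ± 0.08 and the chromatin remodeller SMARCA4 by 0.29 ± 0.04 in the mean, both with every siRNA. The core protein NONO was lower after si-snaR-A#1 (-0.28 ± 0.04) and after si-snaR-A#3 (-0.44 ± 0.04). Among 10 speckle proteins, 1 was higher, 3 were lower and 6 were not called in the mean of the siRNAs. In that mean, 32.2% of all genes were called.

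**Figure D2:**
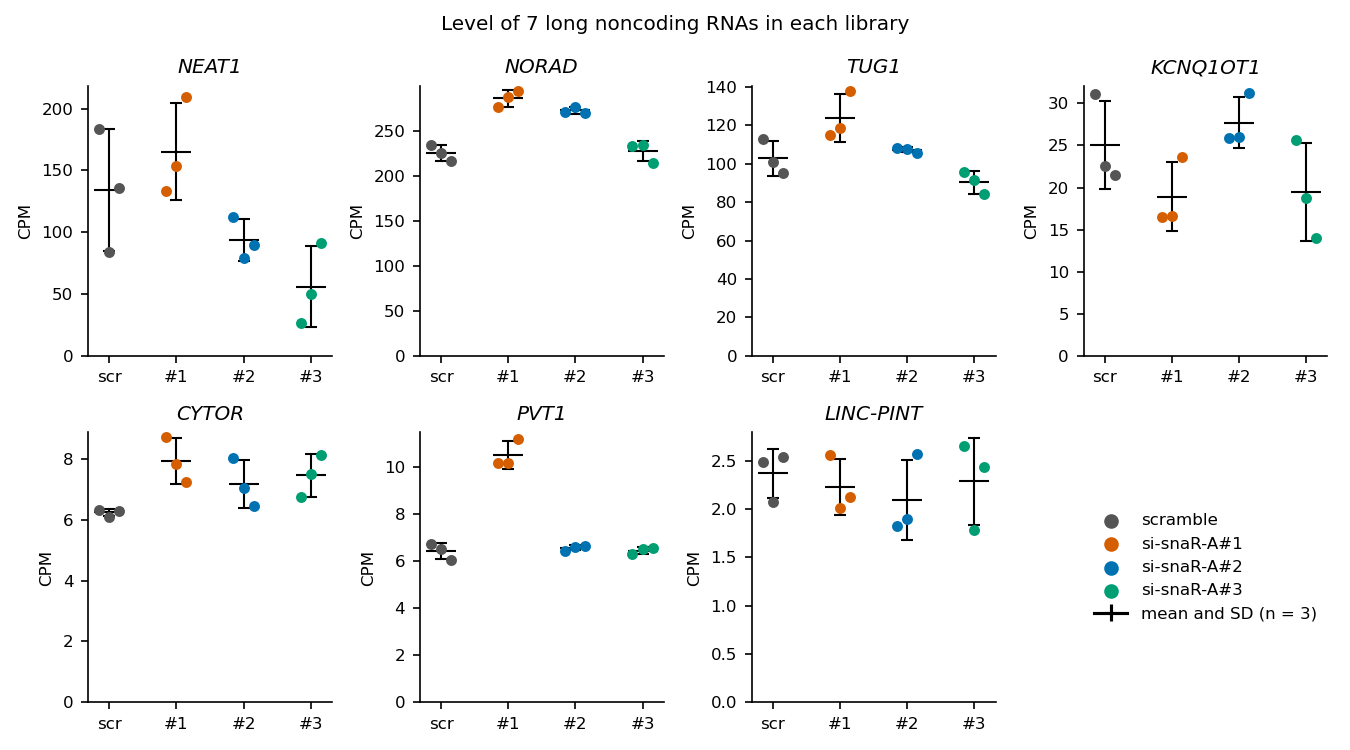
CPM (y axis, from 0) of the 7 tested long noncoding RNAs in each of the 12 libraries, by group (scr, scramble; #1 to #3, the siRNAs), with the mean and SD of 3 replicates in black. NORAD lies higher in libraries of si-snaR-A#1 and also si-snaR-A#2, PVT1 in the si-snaR-A#1 libraries, and NEAT1 ranges from 26.5 to 209 CPM.

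NORAD (ENSG00000260032), the Pumilio-binding RNA whose elements are printed above, had the smallest spread within groups among the 7, an SD of 0.053 in log2 CPM. It was at 234, 225 and 216 CPM in scramble, 276, 288 and 294 CPM after si-snaR-A#1, 271, 277 and 269.7 CPM after si-snaR-A#2 and 233, 234 and 214 CPM after si-snaR-A#3. All 6 libraries of the first 2 siRNAs lay above all 6 of scramble and si-snaR-A#3. The log2 fold change against scramble was 0.35 ± 0.05 after si-snaR-A#1 (adjusted p = 3.8e-05) and 0.28 ± 0.05 after si-snaR-A#2 (6.2e-04). With si-snaR-A#3 it was 0.01 ± 0.05 (0.852), and its sign turned under upper quartile scaling (-0.04). Of the genes that flank NORAD, EPB41L1, a cytoskeletal protein gene at 40486 bases, was lower after si-snaR-A#1 (-0.68 ± 0.08) and higher after si-snaR-A#2 (0.57 ± 0.08) and after si-snaR-A#3 (0.83 ± 0.08), and CNBD2, at 14918 bases, was called after si-snaR-A#1 alone (0.90 ± 0.09).

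Much of the NORAD sequence is shared with other loci, and 50.8% of its 31-base words also occurred in transcripts of other genes, most of them in OVCH1-AS1, which took 37.6%. OVCH1-AS1 was at 0.0563 to 0.129 CPM in the 12 libraries as the reads were assigned. Of the 7 listed partners of NORAD and OIP5-AS1, the mean of the siRNAs had 5 called, 1 higher and 4 lower, beside 32.2% of all genes. PUM2, a Pumilio protein, was at -0.43 ± 0.05 after si-snaR-A#1 (adjusted p = 2.1e-05) and was not called with the other two (-0.08 ± 0.05 and -0.11 ± 0.05). KHDRBS1 (SAM68), an RNA-binding protein and NORAD partner, rose by 0.20 ± 0.05 in the mean and with each siRNA.

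TUG1 (ENSG00000253352, chromosome 22, 30969245 to 30979395, plus strand), a widely expressed RNA found in nucleus and cytoplasm, was at 113, 101 and 95.1 CPM in scramble. It was at 115, 119 and 138 CPM after si-snaR-A#1, 108, 108 and 106 CPM after si-snaR-A#2 and 95.9, 91.4 and 84.0 CPM after si-snaR-A#3. The si-snaR-A#1 libraries lay above all others, and those of si-snaR-A#3 overlapped scramble at its lowest library. The log2 fold change was 0.27 ± 0.08 after si-snaR-A#1 (adjusted p = 0.011), a call lost without scramble replicate 3 (0.22, 0.0519). With si-snaR-A#2 it was 0.06 ± 0.08 (0.612). With si-snaR-A#3 it was -0.19 ± 0.08 (0.0822), which passed the threshold under upper quartile scaling (-0.24, 0.0435) and without si-snaR-A#1 replicate 3 (-0.18, 0.0371). MORC2, which starts 471 bases away on the other strand, was called with no siRNA (-0.09 ± 0.05, -0.06 ± 0.05 and -0.11 ± 0.05), and SMTN, at 84710 bases, rose after si-snaR-A#1 (0.59 ± 0.07).

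KCNQ1OT1 (ENSG00000269821, chromosome 11, 2597308 to 2700003, minus strand) lies antisense within KCNQ1 and is the paternally expressed RNA that silences the imprinted genes around it. It was at 31.1, 22.6 and 21.5 CPM in scramble. It was at 16.5, 16.7 and 23.6 CPM after si-snaR-A#1, 25.9, 26.0 and 31.2 CPM after si-snaR-A#2 and 25.65, 18.76 and 13.98 CPM after si-snaR-A#3. Every group overlapped scramble, while the si-snaR-A#2 libraries lay above both other siRNA groups. Its SD within groups was 0.31 on the log2 scale, larger than that of all but 25 of 4761 genes within 2-fold of its level.

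No change of KCNQ1OT1 against scramble was called. The log2 fold changes were -0.41 ± 0.21 after si-snaR-A#1, 0.14 ± 0.21 after si-snaR-A#2 and -0.36 ± 0.21 after si-snaR-A#3, with adjusted p = 0.132, 0.668 and 0.214. The first passed without si-snaR-A#1 replicate 3 (-0.60, 0.0447) and with no filter on low counts (-0.42, 0.0463), and the third without si-snaR-A#3 replicate 1 (-0.61, 0.0396). They shrank to -0.22 without scramble replicate 1 and to -0.17 without si-snaR-A#3 replicate 3. The value of si-snaR-A#2 lay between 0.05 (without its replicate 3) and 0.33 (without scramble replicate 1), and the mean of the siRNAs, -0.21 ± 0.17 (adjusted p = 0.379), was -0.02 without scramble replicate 1. Of the 9 genes listed for the imprinted domain, 7 were tested and 2 were lower in the mean of the siRNAs, a count that was 1 without scramble replicate 2. CDKN1C, a maternally expressed cell cycle inhibitor, was lower after si-snaR-A#1 (-0.95 ± 0.11, adjusted p = 1.8e-05) and after si-snaR-A#2 (-0.38 ± 0.11, 0.0239), and its log2 fold change was -0.24 ± 0.11 (0.135) after si-snaR-A#3. KCNQ1, the potassium channel gene that overlaps KCNQ1OT1 on the other strand, was lower after si-snaR-A#1 (-0.79 ± 0.13, 2.4e-04) from a scramble level of 1.62 CPM. The exons of the 2 overlap and the use of strand in the read assignment is not stated, so reads may be split between them.

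CYTOR (ENSG00000222041, chromosome 2, 87454781 to 87636740, plus strand), a cytoplasmic RNA tied to cell proliferation, has a near-identical copy on the same chromosome, MIR4435-2HG. Of its 31-base words, 79.3% occurred in transcripts of that copy, and the best local alignment of their canonical transcripts covered 406 bases at 99.8% identity. CYTOR was at 6.33, 6.09 and 6.29 CPM in scramble, 8.73, 7.83 and 7.23 CPM after si-snaR-A#1, 8.03, 7.03 and 6.44 CPM after si-snaR-A#2 and 6.73, 7.51 and 8.11 CPM after si-snaR-A#3. All 9 siRNA libraries lay above all 3 scramble libraries. It rose after si-snaR-A#1 (0.35 ± 0.10, adjusted p = 0.0124), a call lost without si-snaR-A#1 replicate 1 (0.27, 0.0592). After si-snaR-A#2 and after si-snaR-A#3 it was at 0.20 ± 0.10 (0.167) and 0.26 ± 0.10 (0.0723), and the latter passed with DESeq2 (0.27, 0.0259) and without si-snaR-A#3 replicate 1 (0.33, 0.0413).

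The mean of the siRNAs was 0.27 ± 0.08 for CYTOR (adjusted p = 0.025), and this call was lost without scramble replicate 1 (0.28, 0.0652), 2 (0.25, 0.0956) or 3 (0.28, 0.0563). MIR4435-2HG stood at 0.38 ± 0.08 (0.00191), 0.16 ± 0.08 (0.183) and 0.15 ± 0.08 (0.187) with the 3 siRNAs in order. With both genes summed to 1 row, which removes the split of shared reads, the log2 fold change was 0.36 ± 0.07 after si-snaR-A#1 (0.00114), 0.18 ± 0.07 after si-snaR-A#2 (0.0903), 0.20 ± 0.07 after si-snaR-A#3 (0.0518) and 0.25 ± 0.06 in the mean (0.00642).

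PVT1 (ENSG00000249859) showed the clearest pattern among the 7. It was at 6.70, 6.51 and 6.06 CPM in scramble, 10.15, 10.16 and 11.19 CPM after si-snaR-A#1, 6.43, 6.60 and 6.63 CPM after si-snaR-A#2 and 6.27, 6.51 and 6.54 CPM after si-snaR-A#3. The si-snaR-A#1 libraries lay above the other 9, which overlapped one another. PVT1 rose 1.63-fold after si-snaR-A#1 (log2 fold change 0.71 ± 0.07, adjusted p = 2.5e-06), a call held in all alternatives run. The log2 fold changes after si-snaR-A#2 and after si-snaR-A#3 were 0.03 ± 0.07 (0.803) and 0.00 ± 0.07 (0.971), with signs that turned under upper quartile scaling (-0.02 and -0.05). The mean of the siRNAs was 0.25 ± 0.06 (0.00431).

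MYC, the transcription factor gene 51575 bases to the left of PVT1 and on the same strand, was highest in the same 3 libraries. It was at 159.5, 165.7 and 170.7 CPM in scramble and 346.2, 341.7 and 310.5 CPM after si-snaR-A#1. It was at 199.0, 193.0 and 190.0 CPM after si-snaR-A#2 and 195.1, 204.4 and 216.7 CPM after si-snaR-A#3. MYC rose with each siRNA, by a log2 fold change of 1.01 ± 0.05, 0.23 ± 0.05 and 0.31 ± 0.05 (adjusted p = 1.2e-08, 0.00496 and 5.3e-04). The gene on the other side, GSDMC at 1561095 bases, did not pass the filter.

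LINC-PINT (ENSG00000231721, chromosome 7, 130791264 to 131110176, minus strand) was the lowest of the 7 tested. It was at 2.49, 2.08 and 2.54 CPM in scramble, 2.56, 2.008 and 2.126 CPM after si-snaR-A#1, 1.82, 1.90 and 2.57 CPM after si-snaR-A#2 and 2.65, 1.78 and 2.43 CPM after si-snaR-A#3. All groups overlapped. Its log2 fold changes of -0.09 ± 0.18, -0.18 ± 0.18 and -0.05 ± 0.18 had adjusted p = 0.724, 0.521 and 0.858. At this level and spread, changes of the size of these standard errors, and also larger ones, could go without a call. CYTOR at 0.26 ± 0.10 after si-snaR-A#3, for example, was not called. MKLN1, whose exons overlap it on the other strand, rose after si-snaR-A#1 (0.22 ± 0.04) and after si-snaR-A#3 (0.19 ± 0.04). Of 14 PRC2 and G9a chromatin factors listed as partners of these RNAs, 13 were tested, with 2 higher and 2 lower in the mean of the siRNAs. The total of 4, beside 32.2% of all genes called, was 7 without si-snaR-A#1 replicate 3 and 2 without scramble replicate 2. RBBP7, a histone-binding subunit, rose with each siRNA and by 0.24 ± 0.03 in the mean.

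OIP5-AS1, which binds the RNA stability factor HuR (ELAVL1), has 5 protein-coding neighbours by the annotation, all of them tested. OIP5, a centromere protein gene that overlaps it on the other strand, was lower after si-snaR-A#1 (-0.51 ± 0.07) and after si-snaR-A#2 (-0.25 ± 0.07) and was at 0.02 ± 0.07 after si-snaR-A#3. CHP1, 2071 bases to the left, was lower after si-snaR-A#3 (-0.41 ± 0.05). NUSAP1, NDUFAF1 and ENSG00000285920 were called with none of the siRNAs.

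**Figure D3:**
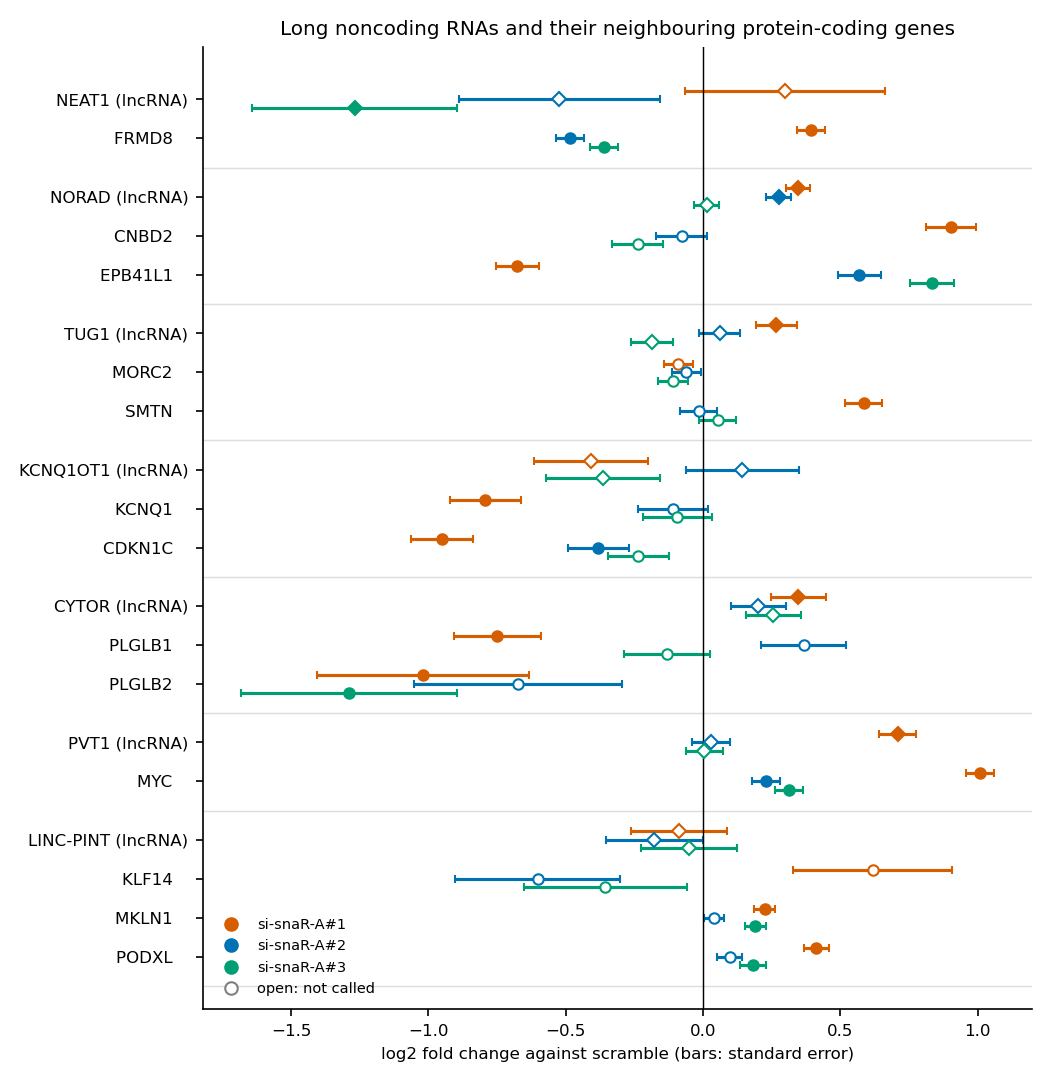
Log2 fold change against scramble (x axis, with standard errors) of the 7 tested long noncoding RNAs (diamonds) and 13 of their nearest or overlapping protein-coding genes (circles) with each siRNA; filled symbols were called at an adjusted p under 0.05. PVT1 and MYC both stand highest after si-snaR-A#1 (0.71 and 1.01), and NEAT1 and FRMD8 lie above 0 after si-snaR-A#1 and below 0 with the other two siRNAs.

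Over the 7 tested RNAs, 4 were called after si-snaR-A#1, all higher, where the test called 45.2% of all 21999 genes, 21.9% higher and 23.3% lower. After si-snaR-A#2, 1 was called, NORAD, higher, beside 25.8% of all genes, 13.7% higher and 12.1% lower. After si-snaR-A#3, 1 was called, NEAT1, lower, beside 29.4% of all genes, 16.5% higher and 13.0% lower. The mean of the siRNAs had 3 called, NORAD, CYTOR and PVT1, all higher, beside 32.2% of all genes and 15.6% higher. The 3 comparisons share the scramble libraries. Upper quartile scaling moved the share of higher among called genes from 53.2% to 40.5% after si-snaR-A#2 and from 55.9% to 42.7% after si-snaR-A#3.

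**Figure D4:**
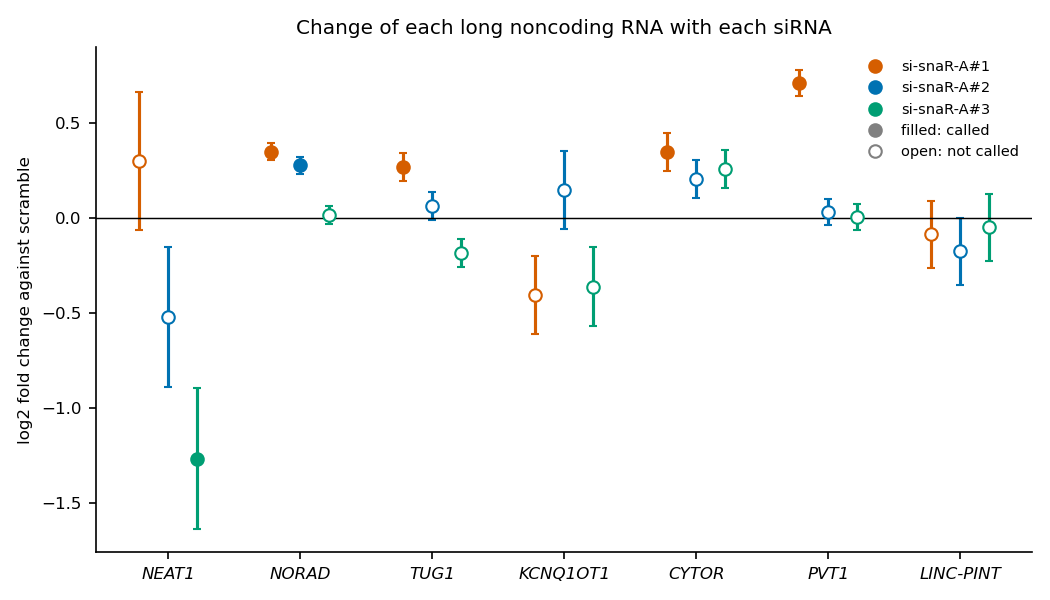
Log2 fold change against scramble with its standard error (y axis) of the 7 tested long noncoding RNAs with each of the 3 siRNAs; filled circles were called. NORAD, TUG1, CYTOR and PVT1 were called higher after si-snaR-A#1, NORAD higher after si-snaR-A#2, and NEAT1 lower after si-snaR-A#3.

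The other lncRNA genes give a closer background. Among 1234 lncRNA genes that averaged at least 1 CPM, 28.4% were higher and 21.3% lower after si-snaR-A#1, with a median log2 fold change of 0.02. With si-snaR-A#2 the shares were 5.59% and 11.8% with a median of -0.08, and after si-snaR-A#3 they were 3.81% and 23.8% with a median of -0.18. The medians of the 7 followed the same order, at 0.30, 0.06 and -0.05, with lowest and highest values of -0.41 and 0.71, -0.52 and 0.28, and -1.27 and 0.26. Of 22 other well-known lncRNAs, 20 were tested, and 4 were higher and 3 lower in the mean of the siRNAs, beside 32.2% of all genes called. DANCR, a snoRNA host gene, was lower with each siRNA, by 0.37 ± 0.03 in the mean.

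**Figure D5:**
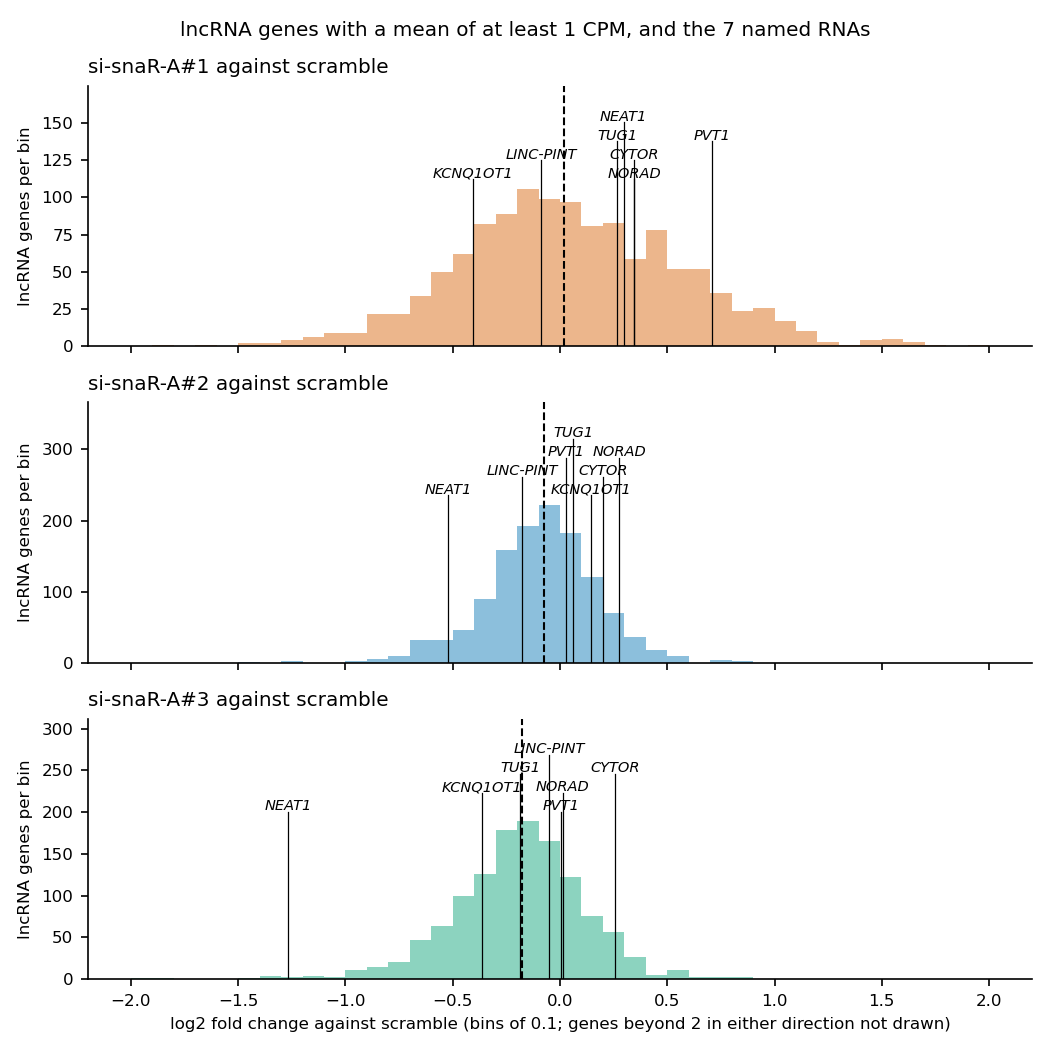
Number of lncRNA genes averaging at least 1 CPM in bins of 0.1 of the log2 fold change against scramble for each siRNA, with the median as a dashed line and the 7 tested long noncoding RNAs as labelled lines. The median moves from 0.02 after si-snaR-A#1 to -0.18 after si-snaR-A#3, where NEAT1 stands at -1.27.

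The siRNAs are meant for 1 target, so each pair of them was also compared. With si-snaR-A#1 set beside si-snaR-A#2, 3 of the 7 RNAs were called, where 46.7% of all genes were. PVT1 (0.68 ± 0.07, adjusted p = 3.6e-06) and TUG1 (0.21 ± 0.08, 0.0393) were higher and KCNQ1OT1 (-0.55 ± 0.21, 0.0448) was lower after si-snaR-A#1. The TUG1 call was lost in 8 of 12 fits that left out 1 library (any library of si-snaR-A#2, replicates 2 and 3 of si-snaR-A#1 and of scramble, and replicate 2 of si-snaR-A#3), with adjusted p of 0.052 to 0.244. Without si-snaR-A#1 replicate 3 the difference was 0.10. The KCNQ1OT1 call was lost in 7 of 12 (any library of si-snaR-A#2, replicates 1 and 2 of si-snaR-A#1, and replicate 2 of si-snaR-A#3 and of scramble), with 0.053 to 0.142, and also with DESeq2 (0.0574), upper quartile scaling (0.0782) and the filter at a mean of 1 CPM (0.0587). With si-snaR-A#1 set beside si-snaR-A#3, 4 were called beside 48.6% of all genes, all higher after si-snaR-A#1: NEAT1 by 1.57 ± 0.37 (0.00379), PVT1 by 0.70 ± 0.07 (2.3e-06), TUG1 by 0.45 ± 0.08 (2.7e-04) and NORAD by 0.33 ± 0.05 (4.9e-05). With si-snaR-A#2 set beside si-snaR-A#3, 2 were called beside 15.6% of all genes (3421, and 2215 without si-snaR-A#2 replicate 2), NORAD (0.26 ± 0.05, adjusted p = 0.00186) and TUG1 (0.25 ± 0.08, 0.043), both higher after si-snaR-A#2, and the TUG1 call was lost in 6 of 12 such fits (any library of si-snaR-A#2, replicates 2 and 3 of si-snaR-A#3 and replicate 2 of scramble), with 0.059 to 0.141. NEAT1 was at 0.75 ± 0.37 (0.214) there and passed without si-snaR-A#3 replicate 3 (1.30, 0.0251).

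NEAT1 did not pass for si-snaR-A#1 set beside si-snaR-A#2 (0.82 ± 0.37, adjusted p = 0.0864), but it did without si-snaR-A#3 replicate 1 (0.0323) or 3 (0.0333), with no filter on low counts (0.0228) and in a fit of the 2 groups alone (0.00529). CYTOR and LINC-PINT differed between no pair at the threshold, with log2 differences of -0.05 to 0.15 for CYTOR and -0.13 to 0.09 for LINC-PINT.

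Across the 12 libraries, Pearson's r of log2 CPM over the 21 pairs of the 7 RNAs lay between -0.667 and 0.83. It was 0.83 for NORAD and TUG1, 0.775 for TUG1 and PVT1, 0.711 for NORAD and PVT1 and 0.638 for NEAT1 and TUG1, but 0.371 for NEAT1 and NORAD, and KCNQ1OT1 and CYTOR stood at -0.667. CYTOR, also called higher after si-snaR-A#1, was at 0.396 with NORAD, 0.111 with NEAT1 and 0.0924 with TUG1. These values include the differences between the groups and are a description of 12 libraries in 4 groups. Among 14527 genes averaging at least 1 CPM, the genes most like each RNA were TMED8 (r = 0.968) and LAMC1 (0.963) for NORAD, ARL10 (0.982) and ENSG00000275851 (0.975) for TUG1, and, for NEAT1, ENSG00000260793 (0.944). For PVT1 they were ENSG00000275600 (0.997) and PCGF3-AS1 (0.992), for KCNQ1OT1 ENSG00000287424 (0.94) and KANTR (0.916), for CYTOR UCK2 (0.91) and BLOC1S3 (0.902) and for LINC-PINT SMAD7 (0.812) and UTP3 (0.773).

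FRMD8, 9249 bases to the left of NEAT1 and on the same strand, was at 20.2 ± 1.09 CPM after si-snaR-A#1, 15.4 ± 0.361 in scramble, 10.99 ± 0.0536 after si-snaR-A#2 and 11.97 ± 0.401 after si-snaR-A#3 (SD, n = 3 each). Its log2 fold changes of 0.39 ± 0.05, -0.48 ± 0.05 and -0.36 ± 0.05 had adjusted p = 3.8e-05, 2.4e-05 and 2.0e-04, beside 0.30, -0.52 and -1.27 for NEAT1. Of all 21 protein-coding neighbours of the 9 RNAs, 19 were tested. With si-snaR-A#1, 7 of them were higher and 6 lower, after si-snaR-A#2 3 and 3, and after si-snaR-A#3 5 and 3, where 45.2%, 25.8% and 29.4% of all genes were called.

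RNAs listed as lacking a poly(A) tail were followed beside the long noncoding RNAs. MALAT1 and the long form of NEAT1 carry none, and the libraries were enriched for poly(A)+ RNA. Whether all transcripts of the listed genes, histones among them, lack a tail was not tested. The summed level of 16 such genes (histones, RNase P and MRP RNAs, 7SK, 7SL and telomerase RNA) was 47.9 to 139 CPM in scramble, 48.5 to 57.9 after si-snaR-A#1, 46.0 to 156 after si-snaR-A#2 and 96.5 to 146 after si-snaR-A#3. These ranges overlapped except that si-snaR-A#1 lay below si-snaR-A#3. Of the 15 tested, edgeR called 0 for the mean of the siRNAs (1 had an unadjusted p under 0.05), DESeq2 called 1, and edgeR called 1 without si-snaR-A#1 replicate 3 or without si-snaR-A#3 replicate 1, and 3 without scramble replicate 3. With si-snaR-A#1, 2 were higher and 5 lower, among them RN7SL1 at -3.35 ± 0.97 (adjusted p = 0.0125). RN7SL1 was at 48.14, 26.23 and 3.322 CPM in scramble, between 2.407 and 2.744 CPM after si-snaR-A#1, 2.653, 43.04 and 50.59 CPM after si-snaR-A#2 and 48.64, 30.04 and 48.33 CPM after si-snaR-A#3. Scramble replicate 3 and si-snaR-A#2 replicate 1 thus stood near the si-snaR-A#1 libraries. The part of poly(A) selection in the spread of NEAT1 was not tested.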

How the data were processed

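RNA of 12 HEK293T cultures in 4 groups of 3 was sequenced. The authors trimmed reads with Trim Galore and assigned them to transcripts with Salmon (hg38, per the labels), and deposited one table of estimated counts, with Ensembl IDs in rows and libraries unscaled. Which transcriptome release was used, how genes were summed and whether strand was used are not given in the sources used here. The 63541 IDs were matched to GENCODE release 44, which held 58160 of them. The counts were rounded to whole numbers, filtered with filterByExpr (21999 genes left), scaled by TMM (factors 0.956 to 1.09) and fitted in 1 model with edgeR 4.0.16 (R 4.3.3). The quasi-likelihood test was two-sided, adjusted by Benjamini-Hochberg across the 21999 genes, and calls were made under an adjusted p of 0.05. SE was taken as |log2 fold change| over the root of F. Since 77.8% of values from 0.5 to 1.5 lay within 0.05 of 1 without being whole, the values look rescaled by length and are not exact read counts. The scripts were tested on simulated data. Totals were 120.4 to 180.1 M counts, and the SEs rest on the spread between replicates (common biological coefficient of variation 0.117). Columns left out: 0.

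The members, lists and tests were chosen with earlier results of these data known. Named genes were the members, their nearest or overlapping protein-coding genes, up to 3 genes per list called in 1 direction with all 3 siRNAs, and the 2 genes with the highest Pearson r. Some genes that this rule names are not reported here. Genes named from the lists outside this rule (NONO, PHF1, PHLDA2, PSPC1, PUM2, RN7SL1, RPP21 and SFPQ) and the pairs of correlated members were chosen after their values were seen. Alternatives were RLE and upper quartile scaling, no filter or a filter at a mean of 1 CPM, the edgeR exact test and DESeq2 1.42.0. Further ones were the compared groups alone, the replicate number as a block and each library left out in turn. Shared 31-base words, alignments and Pumilio elements came from GENCODE release 44 transcripts on GRCh38. The sequences of the siRNAs were not used here.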

Additional observations from a re-analysis of the deposited data

Results flagged for a closer look

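The siRNA groups were compared with each other in the same model. In these comparisons 9 differences of the long noncoding RNAs passed the edgeR quasi-likelihood test (log2 difference, Benjamini-Hochberg adjusted p). Whether they come from the siRNAs or from other differences between the libraries was not tested. For si-snaR-A#1 minus si-snaR-A#2 these were PVT1 at 0.68 (3.6e-06), TUG1 at 0.21 (0.0393) and KCNQ1OT1 at -0.55 (0.0448). For si-snaR-A#1 minus si-snaR-A#3 they were NEAT1 at 1.57 (0.00379), PVT1 at 0.70 (2.3e-06), TUG1 at 0.45 (2.7e-04) and NORAD at 0.33 (4.9e-05). For si-snaR-A#2 minus si-snaR-A#3 they were NORAD at 0.26 (0.00186) and TUG1 at 0.25 (0.043). In all 9 the 3 libraries of one siRNA lay on one side of the 3 of the other. The same libraries gave the p-values, so this separation is no independent support. With the replicate number as a block, TUG1 (adjusted p = 0.0548) and KCNQ1OT1 (0.0531) lost their calls in the first comparison. TUG1 also lost its call in the last (0.0652). Each of these calls was also lost in some fits that left out a library. The test called 46.7%, 48.6% and 15.6% of all genes in the 3 comparisons, in the order given.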

How the results depend on the processing

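Of 966 values of the 7 tested RNAs over the alternatives, 886 kept direction and side of the threshold, 37 lost their call, 16 gained one and 27 changed sign. No change of sign touched a call. Upper quartile scaling turned NORAD with si-snaR-A#3 to -0.0395, PVT1 with si-snaR-A#2 to -0.0164 and with si-snaR-A#3 to -0.0487, and KCNQ1OT1 and LINC-PINT for si-snaR-A#1 minus si-snaR-A#3 to 0.0206 and 0.0219. It gave 2 called RNAs with si-snaR-A#3, and it left 1 called for si-snaR-A#2 minus si-snaR-A#3. A filter at a mean of 1 CPM gave -0.0141 for NORAD and -0.0234 for PVT1 with si-snaR-A#3, and 0.0131 for KCNQ1OT1 and 0.0159 for LINC-PINT for si-snaR-A#1 minus si-snaR-A#3. DESeq2 called 2 RNAs with si-snaR-A#3 and the compared groups alone 0. For the RNAs listed as lacking a poly(A) tail, RLE scaling, no filter, the 1 CPM filter and DESeq2 each called 1. With no filter 1 gene of the KCNQ1 domain was called. Only 1 pair of neighbours in the level order overlapped on the length of all annotated exons. The cause was not tested.

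Leaving out each library gave 0 to 2 called RNAs with si-snaR-A#3 and 1 to 4 for si-snaR-A#1 minus si-snaR-A#2. It gave 1 to 3 for si-snaR-A#2 minus si-snaR-A#3 (all genes 2215 to 3830, lowest without si-snaR-A#2 replicate 2). The level order had 0 to 2 overlaps. Called were 1 to 3 genes of the KCNQ1 domain, 4 to 8 of the MALAT1 3′ end factors and 2 to 7 of the PRC2 and G9a factors. Of the RNAs listed as lacking a poly(A) tail, 0 to 3 were called. With si-snaR-A#3, NORAD ranged from -0.0099 to 0.0548, PVT1 from -0.0310 to 0.0371 and LINC-PINT from -0.17 to 0.10. Between siRNAs, LINC-PINT ranged from -0.0221 to 0.26 (#1 and #2) and from -0.19 to 0.0811 (#1 and #3), KCNQ1OT1 from -0.24 to 0.21 (#1 and #3) and CYTOR from -0.14 to 0.0161 (#2 and #3).

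The labels number the replicates 1 to 3 in each group. Libraries that share a number did not deviate together: over 14529 genes the correlations of their deviations were between -0.236 and 0.172, with a median of -0.042, and 5 of 12 libraries matched best with one of their own number. With the replicate block, 1 RNA was called for si-snaR-A#1 minus si-snaR-A#2, another 1 for si-snaR-A#2 minus si-snaR-A#3, and the counts against scramble were 4, 1, 1 and 3 as before.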
